A study of Vitis vinifera with 36 samples.

Results

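The stilbene synthase cluster of grapevine chromosome 16 is a tandem array of closely related genes. It was taken as every gene model of the deposited annotation with an identifier from VIT_216s0100g00750 to VIT_216s0100g01200 and a row in at least 1 library. There are 36 gene models between these identifiers, and 33 of them had a row and are the members, out of 28441 genes with a row in the series. VIT_216s0100g00870, VIT_216s0100g00970 and VIT_216s0100g01110 had none. RNA was measured in berries of Vitis vinifera cultivars Cabernet Sauvignon (CS, coloured skin) and Riesling (white skin), grown under rain shelter in southern China in a double cropping system. Vines of both cultivars stood on SO4 rootstock, and both crops were forced with hydrogen cyanamide, so no condition lacked this agent. By the paper its application differed. The terminal bud was left unsprayed for the summer crop, whereas only that bud and the area of the pruning wound were treated for the winter crop. The summer crop followed pruning in February and the winter crop followed a further pruning and a defoliation in August, both begun in 1 year. Each cultivar and season was sampled at E-L 35 (the start of softening and colouring), E-L 36 (intermediate sugar) and E-L 38 (harvest), with 3 biological replicates in each of the 12 conditions. Season, weather, forcing date, the way hydrogen cyanamide was applied and defoliation changed together and cannot be told apart. Seeds were removed and the whole pericarp was extracted from pooled berries, so that skin and pulp were measured together, and fewer cells of a type and less RNA per cell cannot be told apart.

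Stilbene synthase (STS) joins a phenylpropanoid starter, p-coumaroyl-CoA, with malonyl-CoA to make resveratrol, the parent of the grape stilbenes. It shares both substrates with chalcone synthase (CHS), which opens the pathway to flavonoids and anthocyanins. In grapevine, stilbenes are known as defence compounds that accumulate after infection, wounding and ultraviolet light and in the skin of ripening berries, and MYB14 and MYB15 are known transcription factors of STS genes.

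The cluster spanned 473 kb (chromosome 16, 16238950 to 16711905, build 12X V2). Of its 33 members, 25 lay on the minus strand and 8 on the plus strand, none overlapped another gene, and the median gap between neighbours was 5.77 kb. In 24 members the coding length was the same, 1179 bases or 392 codons before the stop, and 28 had 2 coding exons. The other 9 coding lengths were 147 bases in VIT_216s0100g01080, 171 in VIT_216s0100g00950, 327 in VIT_216s0100g01060, 486 in VIT_216s0100g00760, 615 in VIT_216s0100g00960, 990 in VIT_216s0100g00800, 1035 in VIT_216s0100g00810, 1071 in VIT_216s0100g00860 and 1281 in VIT_216s0100g01130. The study annotates 23 members as STS. The 10 outside that annotation end in g00760, g00810, g00860, g00880, g00920, g01040, g01060, g01080, g01100 and g01120, and no role is given to them here.

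Such similar copies share reads. The deposited counts are estimates that divide shared reads between genes, and 98.8% of the members' listed counts were not whole numbers, against 25.5% over all genes. A difference between neighbouring copies is therefore uncertain, while a division of reads among members leaves the summed count of the cluster as it is. Only 14 members had a row in all 36 libraries. VIT_216s0100g00760 had a row in 17 libraries, VIT_216s0100g01060 in 16 and VIT_216s0100g01080 in 2, none of them above 1.49 FPKM (fragments scaled by gene length and library depth), and these 3 failed the filter on low counts. The other 30 were tested. The remaining members with gaps were listed in 30 to 35 libraries. Those with gaps end in g00800, g00810, g00830, g00840, g00850, g00920, g00930, g00940, g00950, g00960, g01010, g01040, g01130, g01140, g01150 and g01160.

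Library totals ran from 8367013 to 28686956 counts with a median of 10966200, so that 3 counts, the least taken as detected, corresponded to 0.105 to 0.359 CPM (counts scaled by depth). The cluster held 0.003 to 0.240% of a library. UFGT, the glucosyltransferase that forms anthocyanins, was called lower in Riesling than in CS in all 6 comparisons of the cultivars. Of the 8 skin-colour genes listed, UFGT among them, 6, 6 and 7 were called lower in summer in stage order. In winter 8, 6 and 5 were, and none was called higher. The summed FPKM of the 8 skin-colour genes was 81.2 to 609 in CS and 10.8 to 136 in Riesling, where 6 of the 8 were at 0 in some library. In winter berries at E-L 38 MYBA2 stood at 91.54, 85.22 and 84.45 FPKM in Riesling and at 146, 67.9 and 68.6 in CS. The paper calls MYBA1 and MYBA2 non-functional in white grapes, so their level does not mark colour there. The sum of 5 tannin genes, which mark seed and young skin, was 10.6 to 26.9 FPKM in CS and 6.87 to 51.1 in Riesling, with MYBPA2 at 0 in some libraries of both.

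Before the cluster is described, 7 libraries need a remark. An index of ripening was built from 148 genes that rose and 624 that fell from E-L 35 to E-L 38 in the other 3 series of stages. In Riesling summer berries it averaged -1.68 over the E-L 35 libraries and 0.35 over those of E-L 36, but -0.52 over the 3 labelled E-L 38, each of which lay below the 3 labelled E-L 36. Results on Riesling summer E-L 38 therefore concern libraries with that label. In a comparison of these libraries with others, ripeness and the season or cultivar compared cannot be told apart. The other 4 libraries stood apart by their stilbene synthase level, and were picked after seeing the data: Riesling summer E-L 35 replicate 3, Riesling summer E-L 36 replicate 3, CS summer E-L 38 replicate 1 and CS winter E-L 38 replicate 1. No cutoff was set for this choice. Riesling winter E-L 36 replicate 3 was kept, although its sum was 2.69 times its group's median, near the 2.77 times of CS winter E-L 38 replicate 1. Counts without the 4 libraries depend on this choice. Leaving them out lowers the spread estimated for the genes by which they were picked, so more calls can follow from the choice. Where a count from a fit without some libraries has no share of all genes beside it, it is not read against a background.

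The summed FPKM of the 33 members, a description with no test, was higher in winter than in summer berries of CS at the first 2 stages. In CS at E-L 35 the summer libraries held 42.8, 79.1 and 74.5 FPKM and the winter libraries 428, 421 and 538. At E-L 36 they held 44.2, 42.7 and 40.8 in summer and 845, 439 and 547 in winter. At E-L 38 they held 748, 234 and 233 in summer and 1539, 556 and 536 in winter. Every winter library was above every summer library at the first 2 stages, whereas at E-L 38 summer replicate 1 lay above winter replicates 2 and 3. The log2 ratio of the winter mean to the summer mean was 2.82, 3.84 and 1.11 at the 3 stages, and 1.23 at E-L 38 without the 2 libraries that stood apart there.

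In Riesling the sums were less even. At E-L 35 the summer libraries held 26.1, 46.2 and 349.6 FPKM and the winter libraries 331, 325 and 648. At E-L 36 they held 29.65, 19.7 and 1337 in summer and 103, 94.4 and 279 in winter. The libraries labelled E-L 38 held 21.2, 20.5 and 27.9 in summer and 123, 128 and 46.2 in winter. Summer replicate 3 was far above its group at the first 2 stages and overlapped or passed the winter libraries, and at E-L 38 the seasons did not overlap. The log2 ratio of means was 1.63, -1.54 and 2.09 in stage order, and became 3.59 and 2.69 at the first 2 stages without those summer libraries. At E-L 36 the direction thus rested on 1 library.

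**Figure D1:**
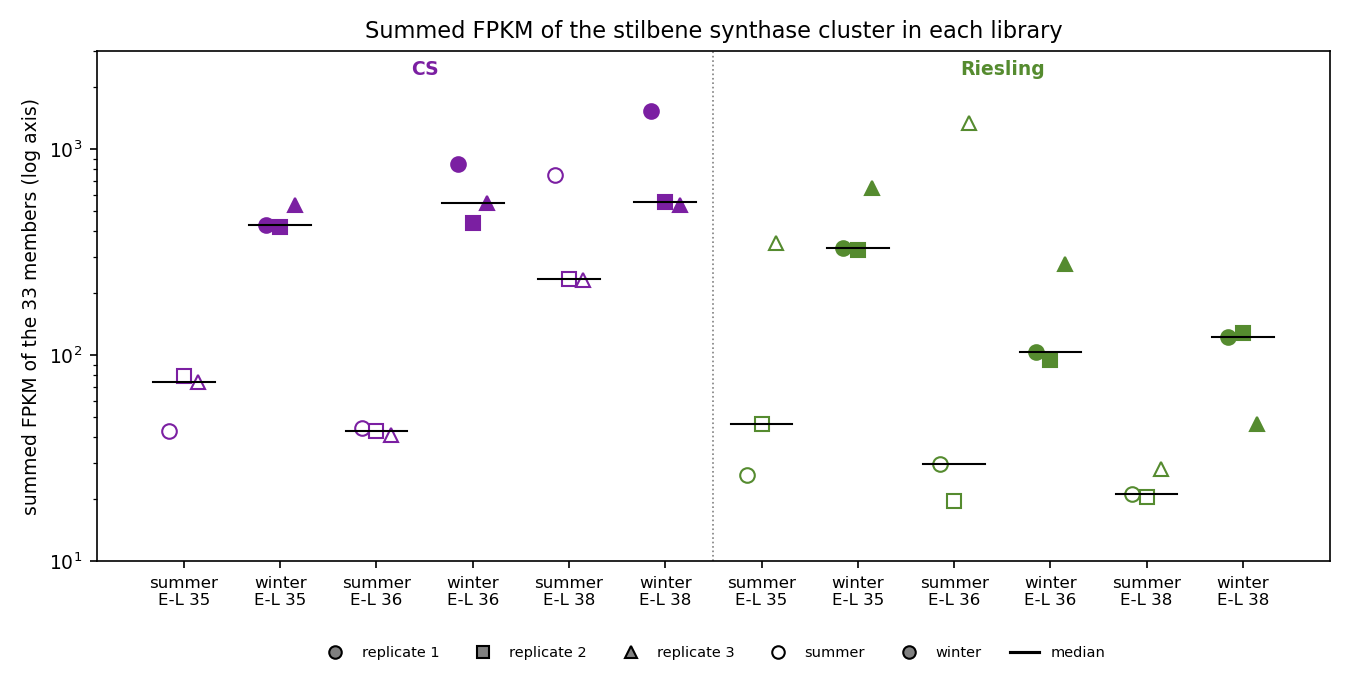
Summed FPKM of the 33 members in each of the 36 libraries (vertical log axis) by cultivar, season and E-L stage, with 1 symbol per replicate, open for summer and filled for winter, and a bar at the median. CS winter libraries lie between 421 and 1539 FPKM, and the highest summer library is Riesling E-L 36 replicate 3 at 1337.

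Ordered by the median of 3 libraries, the 12 conditions ran from CS winter E-L 38, E-L 36 and E-L 35 through Riesling winter E-L 35, CS summer E-L 38, Riesling winter E-L 38 and E-L 36, CS summer E-L 35, Riesling summer E-L 35, CS summer E-L 36 and Riesling summer E-L 36 to Riesling summer E-L 38. Neighbours in this order overlapped, except CS summer E-L 38 above Riesling winter E-L 38 and Riesling winter E-L 36 above CS summer E-L 35.

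The 4 high libraries also differed from their groups outside the cluster. In Riesling summer E-L 36 replicate 3 the summed FPKM of the phenylalanine ammonia-lyase (PAL) genes, the entry to the phenylpropanoid pathway, was 434, against 19.1 and 13.2 in replicates 1 and 2. MYB14 stood at 24.7 FPKM there and at 0.58 and 0.96 in the others. Its CHS sum was 8.68 against 15.3 and 8.63, and its skin-colour sum 68.3 against 19.2 and 18.4, while its tannin sum was 11.0 against 10.9 and 11.8. In Riesling summer E-L 35 replicate 3 PAL was 96.2 against 14.7 and 27.2, and CHS 28.6 against 8.75 and 6.50. Its tannin sum was 51.1 against 17.1 and 23.4, its skin-colour sum 10.8 against 20.7 and 16.3, and its ripening index -2.23 against -1.23 and -1.59. In CS summer E-L 38 replicate 1 PAL was 200 against 89.6 and 87.3, while CHS was lower, at 87.0 against 217 and 216, as was its skin-colour sum, at 81.2 against 163 and 162. In CS winter E-L 38 replicate 1 PAL was 523 against 266 and 244, CHS 834 against 430 and 445, and the skin-colour sum 379 against 180 and 183. PAL was therefore the highest of its group in each of the 4, and CHS in 2 of them. The ripening index was 0.68 in Riesling summer E-L 36 replicate 3 against 0.39 and -0.01 in the others. It was 1.76 in CS summer E-L 38 replicate 1 against 1.47 and 1.49, and 2.63 in CS winter E-L 38 replicate 1 against 2.48 and 2.42. The index genes were chosen from series that include these CS libraries but not the Riesling summer ones. The CS values are therefore not independent of that choice. The part of any of these differences in the STS levels was not tested.

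Members were compared between winter and summer berries with edgeR, and calls required an adjusted p no greater than 0.01 over all 20183 genes tested and a fold change of 2 or more. In CS at E-L 35, 9 of the 30 tested members were called higher in winter and none lower, against 4.54% of all genes called higher. The median log2 fold change of the members was 3.00. All 30 had every winter library above every summer library, which held for 22.0% of all genes. At E-L 36, 23 were called higher and none lower, against 6.50% of all genes, the median was 4.11, and again all 30 did not overlap, against 21.0% of all genes. Both shares called were well above the background. Leaving out any 1 of the 6 libraries left 0 to 5 members called at E-L 35 and 8 to 23 at E-L 36.

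VIT_216s0100g01170 (minus strand, 16682384 to 16711905), the last member by position, is annotated as STS, has 4 transcripts in the annotation and had the highest mean level, 49.1 FPKM. In CS at E-L 36 it stood at 5.54, 5.76 and 5.60 FPKM in summer and at 103, 59.3 and 71.0 in winter, with no overlap. The log2 fold change was 3.89 ± 1.08 (SE, n = 3 per group, edgeR adjusted p = 0.0055). At E-L 35 it held 6.59, 10.3 and 10.7 in summer and 55.8, 51.9 and 59.9 in winter, where the groups were also apart but no call was made.

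VIT_216s0100g00910 (plus strand, 16398197 to 16400134) was second by mean level, at 27.4 FPKM. In CS at E-L 35 it rose from 3.30, 5.06 and 2.73 FPKM in summer to 33.6, 35.8 and 39.0 in winter, a log2 fold change of 3.39 (edgeR adjusted p = 0.00738). At E-L 36 it rose from 4.02, 2.93 and 4.79 to 67.5, 29.5 and 41.7, by 3.70 on the log2 scale (adjusted p = 0.00446). Of the 4 copies with the highest mean, it was the one called at both stages.

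VIT_216s0100g01020 (minus strand, 16503220 to 16509557) rose at E-L 36 in CS from 1.85, 2.63 and 1.62 FPKM to 72.1, 37.4 and 47.8 (log2 fold change 4.79, edgeR adjusted p = 0.00115). VIT_216s0100g00990 (minus strand, 16466734 to 16468638) rose there from 2.24, 2.69 and 4.14 to 68.4, 30.7 and 43.5 (4.10, adjusted p = 0.000878). VIT_216s0100g00750 (plus strand, 16238950 to 16240968), the first member by position, rose at E-L 35 from 0.97, 1.60 and 1.24 to 13.2, 11.4 and 17.1 (3.55 ± 0.96, adjusted p = 0.00457). None of these groups overlapped. The other members called at E-L 35 end in g00770, g00800, g00810, g00830, g00840, g00920 and g00930, so that all lay in the first 2 of 3 blocks of 11 members along the cluster, 6 and 3 of them. At E-L 36 the 23 calls fell 9, 10 and 4 over the blocks. The block medians were close, at 3.24, 2.90 and 2.79 at E-L 35 and 4.20, 4.12 and 4.08 at E-L 36. No difference along the cluster is read from where the calls fell. At E-L 36 the highest log2 fold change was that of VIT_216s0100g00800, a short model, at 5.88 ± 1.25 (edgeR adjusted p = 0.000463). It went from 0, 0.26 and 0.10 FPKM in summer to 9.83, 4.39 and 7.27 in winter. The summer libraries held 0, 4.41 and 1.51 counts, near the floor, so the size of the change is uncertain.

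At E-L 38 in CS no member was called, while 7.29% of all genes were called higher. No member had an unadjusted p under 0.05 and DESeq2 called 0. The median log2 fold change was 1.02, and 3 of 30 had no overlap, against 30.6% of all genes. Without the libraries that stood apart, 7 members were called higher, a count that the choice of libraries by STS level can raise.

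In Riesling the counts of calls were near or below the background. At E-L 35, 2 of 30 members were called higher, against 5.54% of all genes, with a median of 1.75. These were VIT_216s0100g00840 (4.66 ± 1.18, edgeR adjusted p = 0.0025) and VIT_216s0100g00930 (3.72 ± 0.91, adjusted p = 0.00216). The former held 0, 0 and 0.80 FPKM in summer, or 0, 0 and 10.46 counts, and 3.49, 8.54 and 5.28 FPKM in winter. With summer libraries at 0, the size of its change is uncertain. At E-L 36 none was called, against 4.65% of all genes called higher, the median was -1.42, 7 members had an unadjusted p under 0.05 and DESeq2 called 0. At E-L 38 VIT_216s0100g00930 alone was called higher, against 11.8% of all genes (adjusted p = 0.00111), and 17 of 30 did not overlap, against 30.8% of all genes. Summer libraries held 0 FPKM of it there and winter libraries 4.11, 4.22 and 1.08, so that it was at least 14.8-fold higher, taking 3 counts per library as the floor.

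These Riesling counts moved with single libraries. Without summer E-L 35 replicate 3, 9 members were called higher at E-L 35 and the median was 3.59. Without replicate 1 or replicate 2 of the same group, 0 were called and the medians were 1.20 and 1.30. Without summer E-L 36 replicate 3, 7 were called higher at E-L 36 and the median turned to 2.83. Without all 4 libraries that stood apart, 30, 30 and 7 members were called higher in winter in CS in stage order. In Riesling 28, 20 and 16 were, with none lower in either cultivar. The choice of libraries by STS level can raise these counts, and they are not read against a background. None of the 4 belongs to the first 2 CS comparisons or to the Riesling comparison at E-L 38, where they enter only through the spread that all libraries share.

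**Figure D2:**
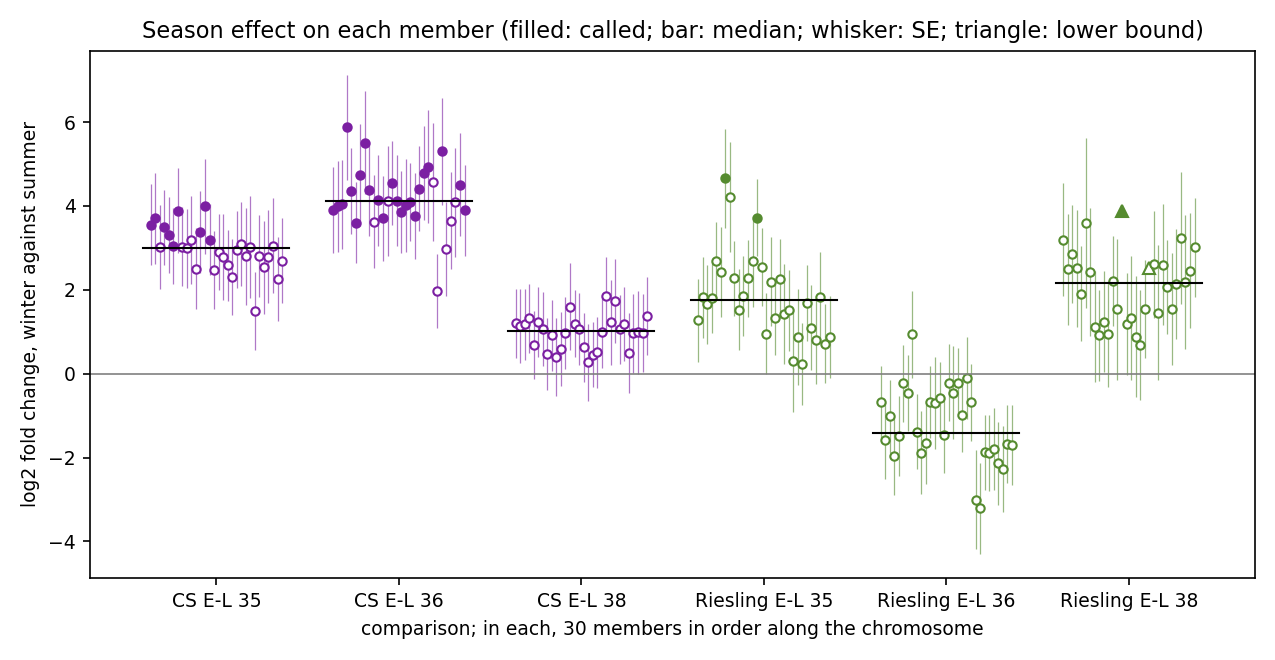
Log2 fold change of winter against summer berries for each tested member in order of position, by cultivar and stage, with whiskers of 1 SE, a bar at the median, filled points for members called by edgeR and triangles for lower bounds. All 30 members lie above 0 in CS at each stage, and 1 of 30 does in Riesling at E-L 36.

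The cultivars were compared within season and stage. In summer berries labelled E-L 38, 19 of 30 members were called lower in Riesling and none higher, against 8.84% of all genes called lower. In 28 members the cultivars did not overlap, against 22.4% of all genes. The median log2 fold change was -4.03. The ripening index averaged 1.575 in the CS libraries of this comparison but -0.52 in the Riesling ones. Ripeness and cultivar therefore cannot be told apart there. Without CS summer E-L 38 replicate 1, 5 were called lower, while 1499 of all 20685 genes tested were. Without all 4 libraries that stood apart 25 were called lower with a median of -3.25, a count that the choice of libraries can raise. In winter berries at E-L 38, 8 were called lower, against 6.56% of all genes, and all 30 did not overlap, against 24.7%. The median was -3.12. Without CS winter E-L 38 replicate 1, 3 were called lower, while 1160 of all 20656 genes tested were.

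VIT_216s0100g01010 (minus strand, 16491297 to 16493205) had the largest shift of its share of the sum between the cultivars. In summer berries labelled E-L 38 it stood at 32.8, 15.9 and 12.9 FPKM in CS and at 0 in all 3 Riesling libraries. That was at least 114-fold lower, in a comparison where ripeness and cultivar cannot be told apart. In winter berries at E-L 38 it stood at 82.0, 23.5 and 21.6 in CS and at 2.10, 0.70 and 0.31 in Riesling (log2 fold change -5.35 ± 1.14, edgeR adjusted p = 0.00061). At E-L 35 in winter it was 29.1, 30.1 and 40.0 in CS and 3.34, 1.47 and 6.90 in Riesling (-3.28 ± 0.97, adjusted p = 0.00794). It was also called at E-L 36 in winter (-3.79 ± 0.97, adjusted p = 0.00298), so that it was lower in Riesling in every winter comparison, with no overlap.

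VIT_216s0100g00830 (plus strand, 16335550 to 16338071), chosen after its values were seen, was called lower in Riesling at E-L 38 of both crops and at no other stage. In winter at E-L 38 it stood at 65.5, 20.6 and 18.3 FPKM in CS and at 0.48, 2.20 and 0.44 in Riesling (-5.05 ± 1.06, edgeR adjusted p = 0.000482). In summer berries labelled E-L 38 it stood at 25.5, 9.01 and 8.47 in CS and at 0, 0.25 and 0 in Riesling. The log2 fold change was -7.42 ± 1.51 (edgeR adjusted p = 0.000193). These Riesling libraries held 0, 5.62 and 0 counts, near the floor, so the size of the change is uncertain. VIT_216s0100g00990 fell from 58.1, 30.8 and 23.6 in CS to 1.07, 2.94 and 0.69 in Riesling in winter at E-L 38 (-4.56 ± 1.01, adjusted p = 0.000814). In summer berries labelled E-L 38, VIT_216s0100g01170 held 111, 48.5 and 45.5 FPKM in CS and 2.25, 1.81 and 2.92 in Riesling. The log2 fold change was -4.98 ± 1.20 (edgeR adjusted p = 0.00113). In winter it held 336, 105 and 101 against 24.0, 23.1 and 7.88, without a call.

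The first stage and the winter crop at E-L 36 held 0 to 2 calls each. In summer at E-L 35 no member was called, while 11.6% of all genes were called in either direction. The median was 1.00, none had an unadjusted p under 0.05 and DESeq2 called 0. The median turned to -1.06 without Riesling summer E-L 35 replicate 3, when 7 of 30 lay above 0, and without all 4 libraries that stood apart 3 members were called lower. In winter at E-L 35 VIT_216s0100g01010 was the 1 member lower, against 5.91% of all genes, and the median was -0.01. That call was lost in each of the 6 fits without 1 library, and DESeq2 called 0. In winter at E-L 36 it and VIT_216s0100g00810 were the 2 members lower, against 4.95% of all genes, with a median of -2.14 and 26 members without overlap, against 18.9%. The counts of calls were near the background, whereas the members without overlap at E-L 36 were well above it. Without the 4 libraries that stood apart, the winter calls numbered 26 members lower at E-L 36, with 23 at harvest. That choice of libraries can raise these counts.

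In summer at E-L 36 the direction was the opposite, with 11 members called higher in Riesling, against 9.26% of all genes called higher, and a median of 3.25. Of these 4 lay in the first block and 7 in the third. VIT_216s0100g01160 (minus strand, 16673901 to 16675599) was one of them, at 0.49, 0.97 and 0.83 FPKM in CS and 1.26, 1.49 and 89.0 in Riesling (log2 fold change 5.10). Without Riesling summer E-L 36 replicate 3, 1 member was called, lower in Riesling, and the median was -0.72.

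From E-L 35 to E-L 38, 5 members rose in CS summer berries, against 2.96% of all genes called higher, with a median of 2.56. They end in g00750, g00770, g00780, g00910 and g01100. VIT_216s0100g00750 went from 0.97, 1.60 and 1.24 FPKM to 22.2, 6.83 and 7.99, and VIT_216s0100g00910 from 3.30, 5.06 and 2.73 to 69.9, 16.9 and 18.3. In 24 members the stages did not overlap, against 16.6% of all genes. Without CS summer E-L 38 replicate 1, 0 were called and the median was 1.85 with all 30 above 0. Leaving out any 1 of the E-L 35 libraries also left 0. Leaving out all 4 that stood apart gave 12, a count that this choice can raise.

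In CS winter berries 1 member rose, VIT_216s0100g01100, against 7.72% of all genes, with a median of 0.74, and the median was 0.04 without the libraries that stood apart. This call was lost in each fit without 1 library, with RLE size factors and with no filter on low counts. In Riesling summer berries none was called against the libraries labelled E-L 38, while 5.85% of all genes were called in either direction. The median was -2.42, 9 members had an unadjusted p under 0.05, and DESeq2 called 4 lower. This rested on Riesling summer E-L 35 replicate 3, without which the median was -0.55, 11 of 30 members lay above 0 and 0 had an unadjusted p under 0.05. In Riesling winter berries 5 fell, against 18.0% of all genes called lower, with a median of -2.10 and 20 without overlap, against 38.9%. The share called was near the background, and the share without overlap was above it. They end in g00800, g00860, g00920, g00940 and g00990. VIT_216s0100g00990 fell there from 13.5, 14.2 and 18.7 FPKM to 1.07, 2.94 and 0.69.

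The stage of the highest mean differed by crop. In CS summer berries all 32 members with a value were highest at E-L 38, and in CS winter berries 6, 7 and 20 of 33 were highest at E-L 35, 36 and 38, or 6, 12 and 14 of 32 by the median of replicates. In Riesling winter berries 30 of 33 were highest at E-L 35. In Riesling summer berries all 32 were highest at E-L 36 by the mean, but by the median of replicates 22 of 30 were highest at E-L 35.

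The season effect was also compared between the cultivars, as the winter minus summer effect of Riesling less that of CS. At E-L 35 no member differed, while 1.53% of all genes did; none had an unadjusted p under 0.05 and DESeq2 called 0. At E-L 36, 17 of 30 were lower, against 5.69% of all genes, with a median of -5.34, and the 17 were spread over the 3 blocks as 6, 4 and 7. At E-L 38 none differed, while 13.4% of all genes did; 1 had an unadjusted p under 0.05 and DESeq2 called 2 higher. The count at E-L 36 rested on Riesling summer E-L 36 replicate 3, without which 0 members were called and the median was -1.19.

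Along the chromosome the members differed widely in level. VIT_216s0100g01170 held the highest FPKM in 29 libraries, VIT_216s0100g00910 in 5, and VIT_216s0100g01130 and VIT_216s0100g01160 in 1 each. The first held 15.6% of the mean sum, the 4 highest 36.5% and the 8 highest 52.6%. VIT_216s0100g01020, VIT_216s0100g00990 and VIT_216s0100g01010 followed with means of 21.7, 16.6 and 13.6 FPKM. Those 3 lay close together in the second block, with VIT_216s0100g01000 between them, while VIT_216s0100g00910 lay earlier in that block and VIT_216s0100g01170 at the far end. By the mean share of the sum, which weights libraries equally, VIT_216s0100g01010 held 3.54% and came after VIT_216s0100g00880, VIT_216s0100g00860, VIT_216s0100g01160, VIT_216s0100g00770 and VIT_216s0100g01000, while the first 4 were the same. FPKM is per length, so these levels can be set beside each other, within the limit of shared reads.

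**Figure D3:**
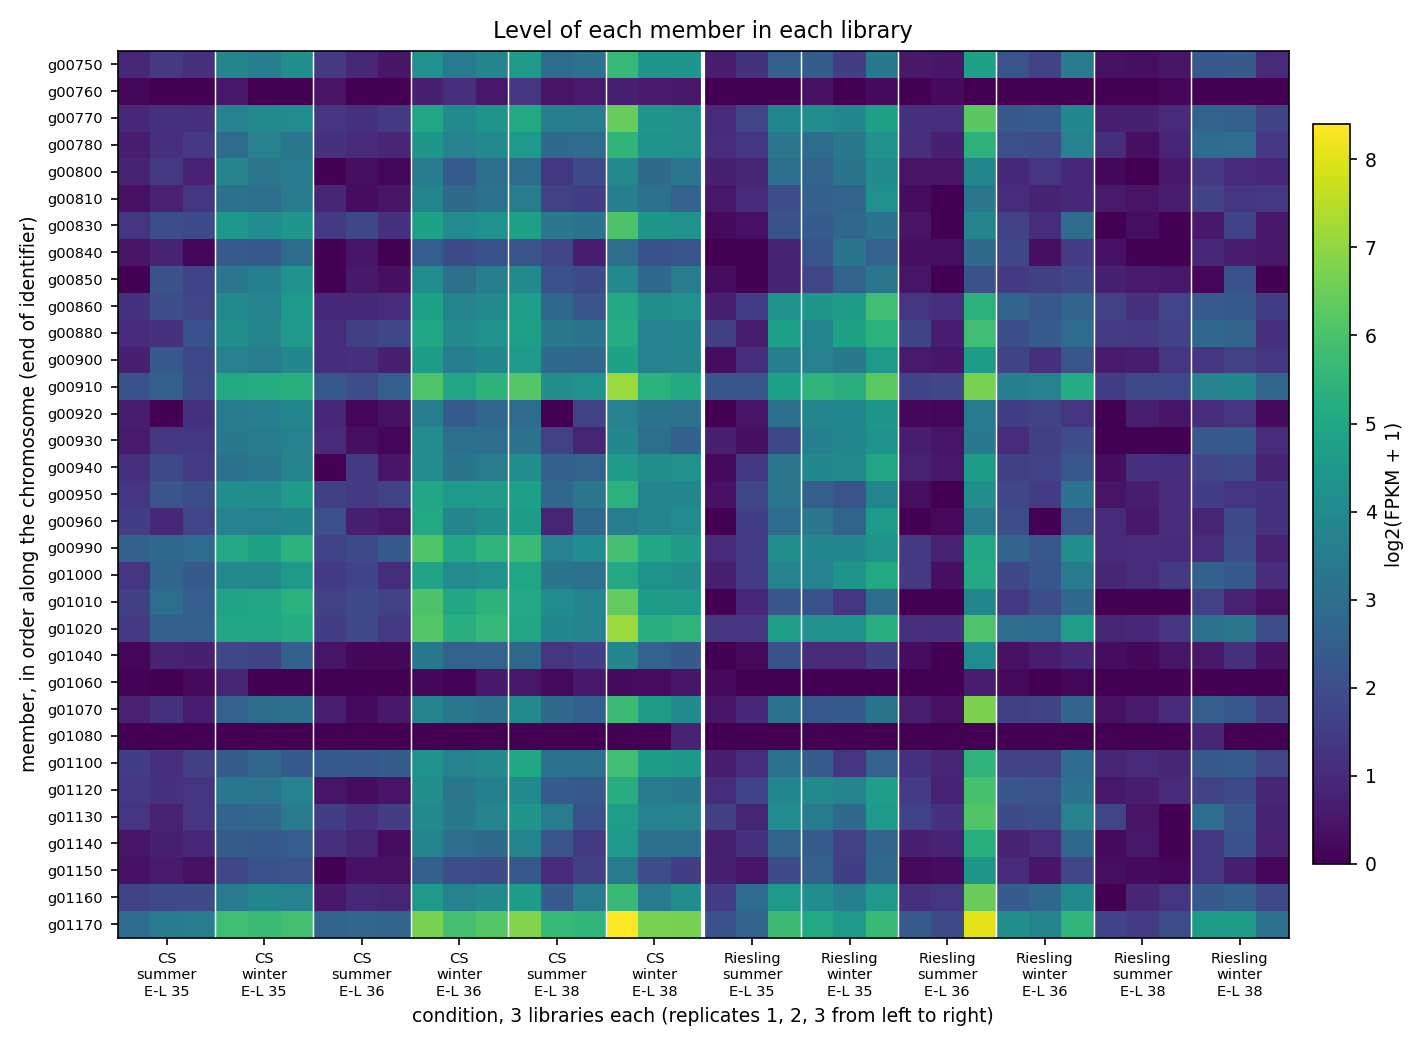
FPKM of each of the 33 members (vertical order by position) in the 36 libraries, as log2(FPKM + 1) in colour. VIT_216s0100g01170 is the highest in 29 libraries, and the columns of Riesling summer E-L 36 replicate 3 and of the 3 CS winter E-L 38 libraries are bright over most of the cluster.

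The cultivars divided the sum differently among the copies. VIT_216s0100g01010 held 6.16% of the sum in CS, from 4.03 to 9.01%, and 0.92% in Riesling, from 0 to 3.20%. VIT_216s0100g00830 held 3.83% in CS, from 3.21 to 6.01%, and 1.05% in Riesling, from 0 to 2.48%. Neither share overlapped between the 18 libraries of each cultivar. Sums of at least 100 FPKM were reached by 12 CS and 9 Riesling libraries, and among these the shares were 4.03 to 7.69% against 0.45 to 2.21% for VIT_216s0100g01010 and 3.21 to 4.94% against 0.39 to 2.48% for VIT_216s0100g00830. Other copies shifted with overlap. VIT_216s0100g00990 held 7.08% in CS and 3.87% in Riesling. In the other direction VIT_216s0100g00910 held 7.69% and 10.9%, and VIT_216s0100g01160 2.82% and 5.33%. VIT_216s0100g01170 held 15.1% and 13.5%. A difference in sequence between the cultivars and the reference would also move shared reads between copies, which was not tested.

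The balance along the cluster shifted with stage in the winter crop and, for the second block, in CS summer berries too. In CS winter berries the third block held 23.4% of the sum at E-L 35 but 36.9% at E-L 38, and the second block 49.2% and 39.0%. In Riesling winter berries the third block held 23.3% and 39.2%, and the second block 46.6% and 34.9%. In both cultivars the 3 libraries at E-L 35 lay apart from the 3 at E-L 38 in the third block. VIT_216s0100g01170 shared in this, at 13.0, 12.3 and 11.1% of the sum at E-L 35 and 21.8, 18.8 and 18.8% at E-L 38 in CS winter berries, and 10.1, 6.68 and 7.69% and 19.6, 18.1 and 17.0% in Riesling winter berries. In summer berries the third block did not move alike. In CS it held 29.6% at E-L 35 but 34.9% at E-L 38, with overlap. In Riesling it held 40.1% and 29.7%, the other direction, where the 3 libraries labelled E-L 38 summed to 20.5 to 27.9 FPKM. The second block fell in CS summer berries from 49.1% (46.1 to 52.8%) at E-L 35 to 40.5% (37.3 to 42.6%) at E-L 38, without overlap. In Riesling summer berries it held 35.5% and 39.8%, with overlap. These shares were chosen for display after they were seen and carry no test. VIT_216s0100g01100 held 9.46, 9.38 and 11.0% in CS summer berries at E-L 36 and at most 5.21% in any other condition.

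**Figure D4:**
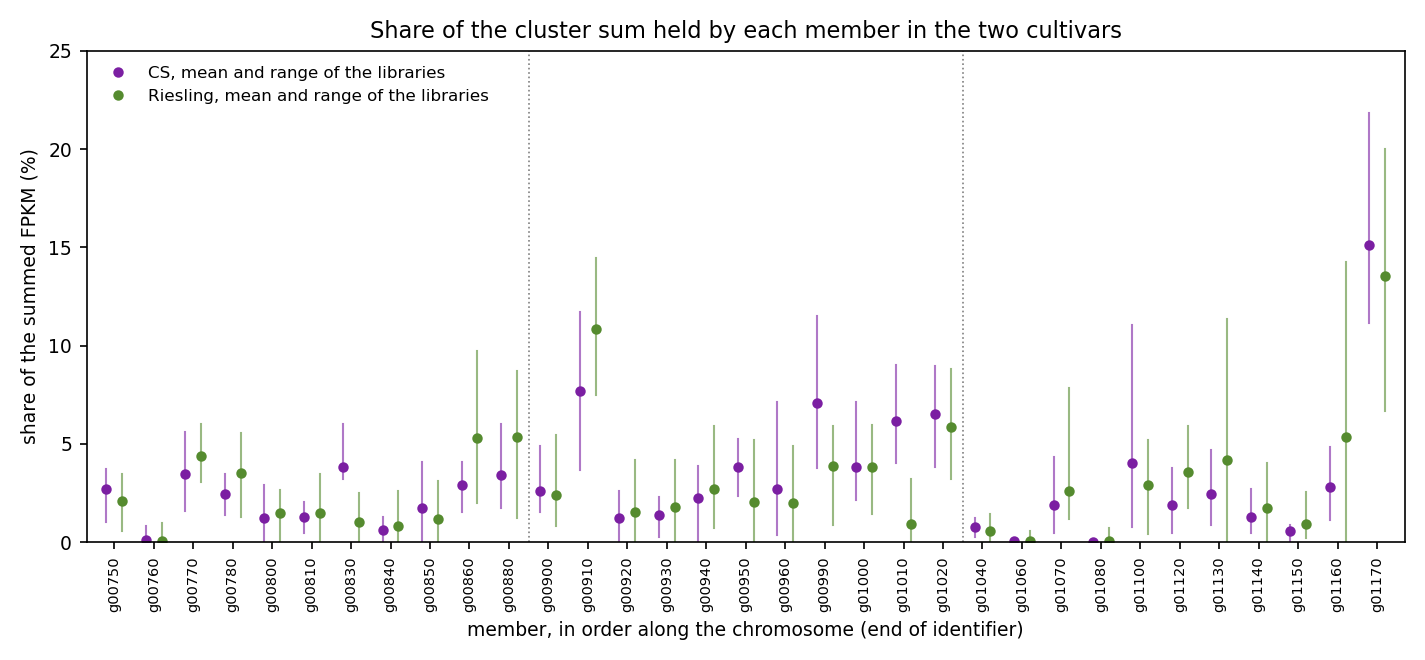
Share of the summed FPKM (percent) held by each member in order of position, as the mean (point) and range (line) of the 18 CS and the 18 Riesling libraries. VIT_216s0100g01010 holds 6.16% in CS and 0.92% in Riesling, and VIT_216s0100g01170 holds 15.1 and 13.5%.

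Single members spread more between replicates than the median of all genes tested, which were not matched to them for level. The median over members of the SD of log2(FPKM + 1) between replicates was 0.23 to 2.41 by condition, while the median over all genes tested was 0.105 to 0.230. It was highest in Riesling summer E-L 36 (2.41 against 0.141) and Riesling summer E-L 35 (1.45 against 0.230), followed by CS summer E-L 38 (0.95 against 0.135) and Riesling winter E-L 36 (0.76 against 0.142). It was lowest in CS winter E-L 35 (0.23 against 0.133). Of the members with a value, 31 of 32 were highest in replicate 3 of Riesling summer E-L 36 and 30 of 31 in replicate 3 of Riesling summer E-L 35. In replicate 1 of CS summer E-L 38, 31 of 32 were highest, and in replicate 1 of CS winter E-L 38, 30 of 33. These 4 libraries were picked for the level of the cluster, so high members there follow from the choice. Copies also share reads, so the members are not independent. In the other conditions the commonest replicate held 12 of 31 to 30 of 32 members. The coefficient of variation of the sum was 0.0399 in CS summer E-L 36 and 1.64 in Riesling summer E-L 36. In CS summer E-L 36 the median SD of members was still 0.24 against 0.105, so members can spread where the sum does not. In Riesling summer E-L 36 the highest library was 45.1 times the median.

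Genes of the same pathway outside the cluster were compared alike. Of 11 PAL genes tested, the winter berries of CS had 4, 10 and 2 called higher in stage order, and those of Riesling 2, 2 and 2. Over all genes, 4.54, 6.50 and 7.29% were called higher in CS and 5.54, 4.65 and 11.8% in Riesling. These shares also stand beside the season counts of C4H, 4CL, MYB and CHS below. Without the 4 libraries that stood apart CS had 11, 11 and 5 PAL genes called higher, with 10, 10 and 7 for Riesling. Counts without those libraries are not read against a background. Of 3 genes of C4H, the cinnamate 4-hydroxylase, 1, 3 and 0 were called higher in CS and 1, 0 and 1 in Riesling. Of 4 genes of 4CL, which makes the CoA ester used by STS, 2, 2 and 1 were higher in CS and 0, 0 and 1 in Riesling, with 1 lower in Riesling at E-L 38. Without the 4 libraries, C4H had 3, 3 and 1 called higher in CS and 3, 3 and 2 in Riesling, and 4CL 3, 2 and 2 and 2, 2 and 2. The STS gene on chromosome 10 was higher in CS at E-L 36 (log2 fold change 4.77 ± 1.16, edgeR adjusted p = 0.0018).

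MYB15 rose in winter in CS by 1.92, 3.53 and 1.65 on the log2 scale in stage order and in Riesling by 2.63 at E-L 38. MYB14 was called in no season comparison of all 36 libraries and was lower in Riesling in winter at E-L 38 (-2.85 ± 0.82, edgeR adjusted p = 0.00779). In CS at E-L 36 MYB14 stood at 2.33, 2.55 and 2.86 FPKM in summer and at 13.7, 8.66 and 9.58 in winter. Without Riesling summer E-L 36 replicate 3, the 2 MYB genes were called in the season comparisons of CS and of Riesling at E-L 36. Of 2 CHS genes, 0, 2 and 2 were higher in winter in CS and 2, 1 and 1 in Riesling, and both were lower in Riesling in all 6 comparisons of the cultivars.

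**Figure D5:**
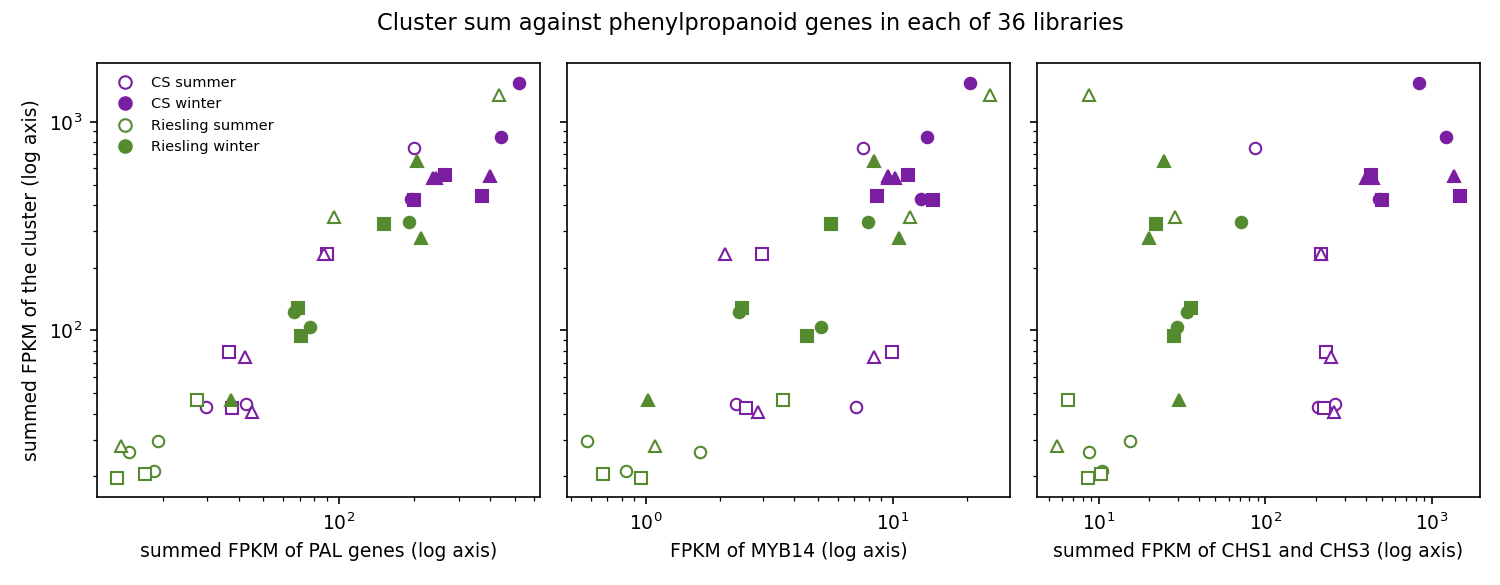
Summed FPKM of the cluster (vertical log axis) against the summed FPKM of PAL genes, the FPKM of MYB14 and the summed FPKM of CHS1 and CHS3 (horizontal log axes), with 1 point per library, coloured by cultivar, open for summer and filled for winter. Riesling summer E-L 36 replicate 3 lies at 1337 FPKM of the cluster with 434 of PAL, 24.7 of MYB14 and 8.68 of CHS.

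The genes most like the cluster were ranked by Pearson's r of log2(FPKM + 1) with the log2 summed FPKM over the 36 libraries, among 20153 genes outside it. These values are a description, the libraries share conditions, and copies of PAL may share reads as well. The first 10 had r of 0.93 to 0.96, of which 6 were PAL genes, and the first was VIT_216s0039g01130 (PAL, 0.96). A 4CL gene, VIT_211s0052g01090, had 0.95. Of the 11 PAL genes 9 lay within the first 25. The STS gene of chromosome 10 was at place 20 (0.91), MYB14 at 46 (0.85), MYB15 at 272 (0.67), and the CHS genes at 656 (0.57) and 1308 (0.48). Within conditions, after the mean of each was taken off, MYB14 had 0.97 and MYB15 0.83, while the CHS genes had 0.14 and -0.06. Over the 32 libraries without those that stood apart, 6 PAL genes were among the first 10, MYB14 had 0.82 and MYB15 0.65, the CHS genes had 0.67 and 0.60, and within conditions MYB14 had 0.78, MYB15 0.69 and the CHS genes -0.25 and -0.32. Members themselves had r of 0.84 to 0.99 with the sum of the other members, with a median of 0.93.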

How the data were processed

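Total RNA of deseeded berries was sequenced by the authors and mapped to build 12X V2. Bowtie is named in the submitters' processing notes without a version, and the counting program is not given in the sources used here. Per library the authors deposited expected counts, which need not be whole, and FPKM per gene. A deposited table of the whole series held 36 numbered sample columns that were not used, since the numbers match no label. Totals ran from 8367013 to 28686956 counts, and floors cover counting error only.

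Expected counts were rounded and fitted with edgeR 4.0.16 (quasi-likelihood, TMM, filterByExpr) in R 4.3.3 as 12 conditions in 1 model, with Benjamini-Hochberg adjustment over all 20183 genes tested. Scripts were tested on simulated data. Summed FPKM, shares and likeness were computed in Python 3.11.15 (numpy 2.4.6, pandas 2.3.3, matplotlib 3.10.9) on log2(FPKM + 1) or FPKM, and carry no test. Alternatives were DESeq2 1.42.0, RLE size factors, no filter, the libraries of a contrast alone, a replicate block, each replicate left out, CPM in place of FPKM, members with STS annotation alone, and a median over members. Leaving out together the 4 libraries that stood apart, shares of CPM, shares over annotated members, and pathway counts and likeness without those libraries were chosen after seeing the data.

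Values per library were given for the 4 members with the highest mean FPKM, the first and last by position, and the 2 with the largest shift of share between the cultivars in each direction. VIT_216s0100g00800, VIT_216s0100g00830, VIT_216s0100g00840, VIT_216s0100g00930 and VIT_216s0100g01100 were added after their values were seen. The members and lists were chosen with earlier results of these data known. Replicates are biological replicates by the labels, numbered within each condition.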

Additional observations from a re-analysis of the deposited data

Results flagged for a closer look

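At E-L 36 the season effect of Riesling was not that of CS, by an edgeR test of the difference itself. This held for 17 members of the stilbene synthase cluster, for 7 PAL genes, for 1 C4H gene, for 1 4CL gene (VIT_206s0061g00450, 1.23 on the log2 scale, the only one of these in the other direction) and for 1 MYB gene, MYB15 (-2.48 ± 0.46, adjusted p = 0.000285). No CHS gene differed, while 5.69% of all genes were called lower. Without Riesling summer E-L 36 replicate 3, 0 members, 0 PAL genes and 0 C4H genes were called, while 1 4CL gene and 1 MYB gene still were. The cause was not tested.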

How the results depend on the processing

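RLE size factors and no filter on low counts each moved 1 count by over 1.5 times, the E-L 38 against E-L 35 count in CS winter berries, to 0. DESeq2 called 5 members in the season comparison of Riesling at E-L 38, 18, 0 and 13 between the cultivars in summer E-L 36, winter E-L 35 and winter E-L 38, 4 between the stages in Riesling summer, and 2 for the difference of the season effects at E-L 38. Fitted on the libraries of each comparison alone, the calls were 29, 0 and 15 for season in CS E-L 35, Riesling E-L 35 and Riesling E-L 38, 0, 3, 19 and 24 between the cultivars in summer E-L 36 and in winter E-L 35, 36 and 38, 15, 3 and 18 between the stages in CS (summer, then winter) and in Riesling winter, and 1 for the difference at E-L 36.

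The replicate block, added to that fit, gave 29, 10, 0 and 14 calls for season in CS E-L 35, CS E-L 38, Riesling E-L 35 and Riesling E-L 38, 0, 7, 21 and 28 between the cultivars in summer E-L 36 and winter E-L 35, 36 and 38, 8, 4 and 18 between the stages, and 0 and 2 for the differences at E-L 36 and 38. No comparison had all 3 correlations of same-numbered deviations above 0.1. This does not show that same-numbered libraries are unlinked, which was not tested. The nearest was the season comparison of Riesling at E-L 36, with 0.089, 0.102 and 0.191. At E-L 35 Riesling had 0.274, -0.059 and 0.3. The replicate number most often highest for members was shared by both seasons in Riesling E-L 35 and 36 and CS E-L 36 and 38. It differed in CS E-L 35 and Riesling E-L 38. With the block the member median for season in Riesling E-L 36 was 0.23, against -1.43 without it.

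With the 4 libraries that stood apart left out, an alternative chosen after seeing the data, the calls were 30, 7, 28, 20 and 16 for season in CS E-L 35, CS E-L 38 and Riesling E-L 35, 36 and 38, 3, 4, 5, 26 and 23 between the cultivars in summer E-L 35 and 36 and winter E-L 35, 36 and 38, 12, 2 and 20 between the stages in CS (summer, then winter) and in Riesling winter, and 2 for the difference at E-L 36. The log2 ratio of the summed FPKM in Riesling E-L 36 then became 2.69. The median over members gave 2.91 in CS E-L 36 and 0.82 in Riesling E-L 38, and shares of CPM moved the difference in VIT_216s0100g00830 to -3.99 percentage points, with no other share moved.

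Leaving out 1 library at a time, the calls ran for season from 0 to 5 and 8 to 23 in CS E-L 35 and 36, 0 to 9 and 0 to 7 in Riesling E-L 35 and 36, and were 0 in CS E-L 38 and 1 in Riesling E-L 38. Between the cultivars they ran from 1 to 22 and 5 to 20 in summer E-L 36 and 38 and 0 to 2 and 3 to 8 in winter E-L 36 and 38, and were 0 in E-L 35 of both seasons. Between the stages they ran from 0 to 4 in CS summer and Riesling winter and were 0 in the other crops, and for the difference at E-L 36 from 0 to 27. The log2 ratio of the summed FPKM in Riesling E-L 36 ran from -2.22 to 2.69. With 3 libraries per condition, counts moved with single libraries, and copies share reads.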
